A study of Mus musculus with 6 samples.

Results

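The 10 genes described here encode transcription factors of the somite and of the sclerotome, its ventral derivative: Pax1, Pax9, Meox1, Meox2, Foxc1, Foxc2, Tcf15, Nkx3-2, Twist1 and Scx. They were taken as the array spots for mouse transcripts whose platform gene symbol is one of these names. Each gene had 1 probe, so the set comprised 10 of the 34967 transcript probes on each array. The study took mouse embryos at embryonic day 9.5, severed the region posterior to the forelimb pit and measured its RNA on 1-colour CodeLink Mouse Whole Genome arrays. The 6 samples were 3 labelled Fkbp8 null (samples 6, 9 and 11) and 3 labelled wild type (samples 7, 10 and 12), all of the strain mix C57BL/6 and 129S5/SvEvBrd. The age label is the same for all of them, and the protocol gives an average of 21.6 somite pairs for the whole collection and no count for a single embryo. One label places the tissue in the anterior neural tube, whereas another label, the dissection protocol and the series title place it posteriorly, and the latter reading was used. The labels do not describe the null allele and do not say whether a sample was a single embryo or a pool, so p-values cover only the sample-to-sample spread, which may be technical.

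Somites bud from the presomitic mesoderm as epithelial blocks on both sides of the neural tube. Hedgehog signals from the notochord and floor plate, together with BMP antagonists, turn the ventral part of each somite into mesenchymal sclerotome, the source of vertebrae and ribs, while the dorsal part forms the dermomyotome. Fkbp8 encodes a membrane-anchored immunophilin that restrains hedgehog signalling in the mouse neural tube. Foxc1, Foxc2, Tcf15 and Meox1 act from the formation of the epithelial somite onwards, Pax1, Pax9 and Nkx3-2 act in the sclerotome, and Scx marks the tendon progenitors that arise next to it.

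Across the arrays, 62.8% to 68.4% of the transcript probes were flagged above background, and the median spot was 2.33 to 3.80 times as bright as the median negative control. Fkbp8 was measured above background on the 3 wild-type arrays but on no null array, which makes it at least 3.33-fold lower in the null group (log2 difference -1.77 ± 0.23 SE; limma adjusted p = 0.394). Wild-type sample 10 stood apart from the other 5 arrays in its sex genes and tissue markers. It had the single high Xist signal (log2 10.3 on the brighter probe, against 5.98 to 6.53) and the lowest signal of the Y-linked gene Eif2s3y (6.16, against 8.63 to 8.90), a female pattern where the other 5 samples had a male one. The difference of each tested somite factor is therefore given with and without sample 10. Over all probes tested, its correlation with the other arrays was 0.975 to 0.986, and that of wild-type sample 12 with the others was 0.975 to 0.981.

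Of the 10 factors, 8 were above background on all 6 arrays. On single arrays 62.8% to 68.4% of all transcript probes were above it. A signal above background does not show which cells of the tissue made it. Pax9 was above background on 5 arrays and near it in wild-type sample 10. Scx was above background in null sample 11 and wild-type sample 12 only, so it was not tested. The array spots measure relative signal per probe, so levels are compared between arrays and not between genes. Intensities are background-subtracted spot brightness before scaling between arrays, and log2 signals are the same values with an offset of 50 after quantile normalization.

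None of the 9 factors tested passed the threshold for a difference between null and wild-type tissue. In the limma fit over 21279 probes each had an adjusted p of 0.9999, and 0.0047% of all probes passed the threshold of 0.05. Of the 9, 8 had a higher mean in the null group and 1, Pax1, a lower one, with a median log2 difference of 0.35. Over the 12865 named genes tested, 53.3% were higher in the null group and the median was 0.01. Without wild-type sample 10 the count was again 8 of 9, but the median fell to 0.13 and the gene with the negative difference was Tcf15 instead of Pax1. At an unadjusted p under 0.05 there was 1 factor, Meox2, where 1.75% of all probes were higher and under that p. Leaving out single arrays moved this count from 0, without wild-type sample 7 or null sample 9, to 4, without wild-type sample 12. In those 3 fits 3.38%, 1.84% and 3.34% of all probes tested, in the same order, were under that p in either direction. Because the tissue is a mixture, a change in the share of somite cells and a change in RNA per somite cell cannot be told apart.

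**Figure D1:**
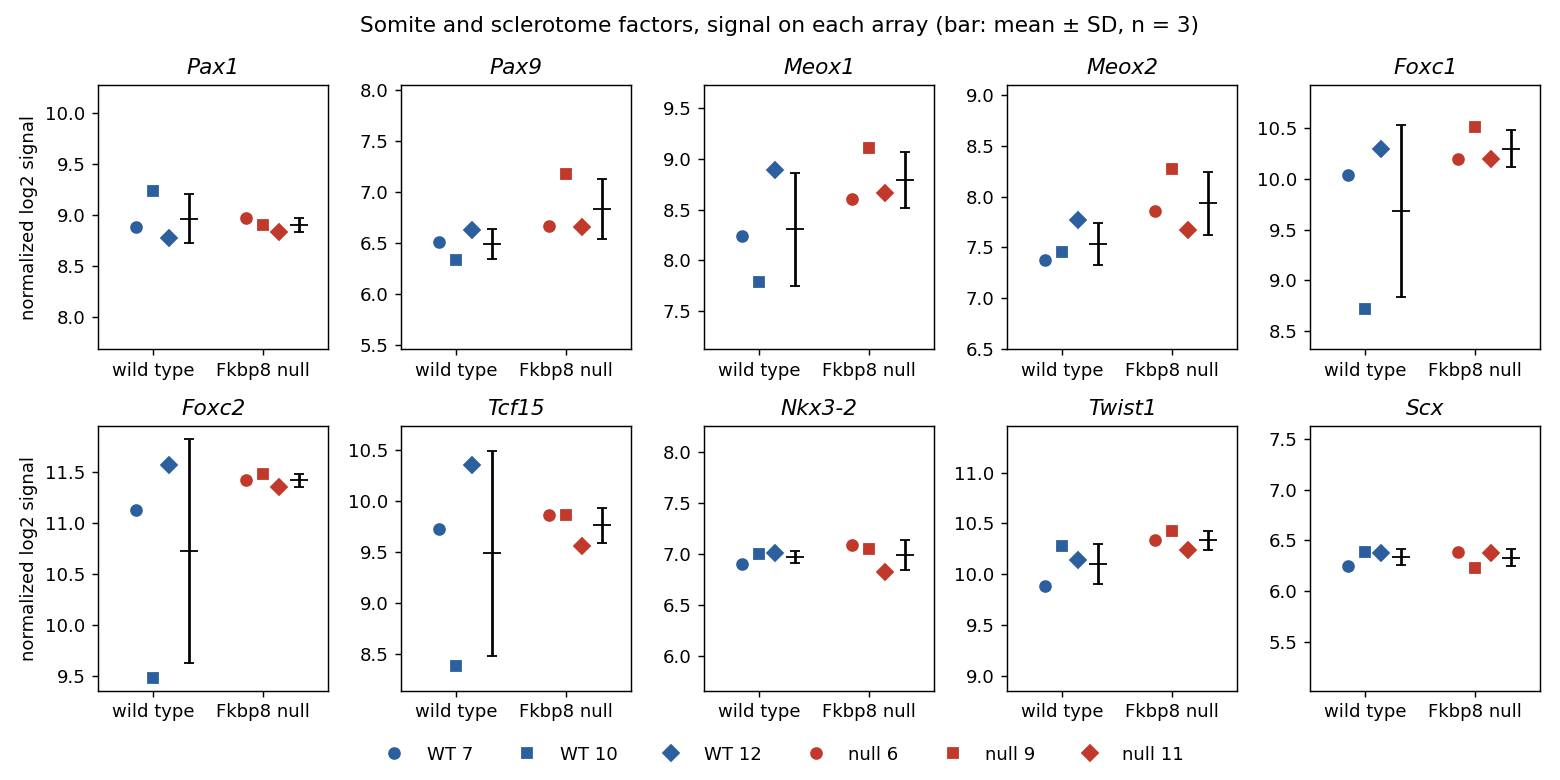
Normalized log2 signal (y axis) of the 10 somite and sclerotome factors in wild-type (blue) and Fkbp8 null (red) samples, with symbols for single arrays and black bars for the mean ± SD of 3 arrays. Panels span the same range of log2 units around different centres; wild-type sample 10 (blue square) lies far below all other arrays for Foxc1, Foxc2 and Tcf15.

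The factors of the early somite varied most, and this variation lay within the wild-type group. Foxc2 encodes a forkhead factor that acts together with Foxc1 in somite formation. Its intensity was 1735 in wild-type sample 7, 628 in wild-type sample 10 and 3660 in wild-type sample 12, and 2205, 3174 and 2870 in null samples 6, 9 and 11. On the log2 scale the wild-type values were 11.12, 9.48 and 11.57 and the null values 11.42, 11.48 and 11.36. All 3 null values therefore lay between those of wild-type samples 7 and 12, and sample 10 alone was far below. The wild-type SD was 1.10 and the null SD 0.06 (n = 3 each). The log2 difference, null minus wild type, was 0.70 ± 0.45 (SE; 95% interval -0.34 to 1.73), the largest of the set by mean. It dropped to 0.07 ± 0.15 without sample 10 and rose to 1.13 without wild-type sample 12, the highest array.

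Foxc1, the closest relative of Foxc2, had the same pattern. Its log2 signals were 10.03, 8.72 and 10.29 in wild-type samples 7, 10 and 12 and 10.19, 10.51 and 10.19 in null samples 6, 9 and 11. Sample 10 was again the lowest, with an intensity of 354 against 778 or more on every other array. The difference was 0.62 ± 0.36 (SE) with all arrays, 0.13 ± 0.15 without sample 10 and 0.93 without wild-type sample 12. The correlation of Foxc1 with Foxc2 over the 6 arrays was 0.99, and 0.76 over the 5 arrays without sample 10, given as a description.

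Tcf15, also called paraxis, is a basic helix-loop-helix factor needed for somites to become epithelial. It had log2 signals of 9.73, 8.38 and 10.36 in wild-type samples 7, 10 and 12, and 9.87, 9.86 and 9.56 in null samples 6, 9 and 11. The wild-type group held both the lowest and the highest array, and its range of 1.98 enclosed all null values. The difference was 0.28 ± 0.42 (SE) over all arrays and turned to -0.28 ± 0.20 without sample 10, so its direction depended on that single sample, and it was 0.71 without wild-type sample 12. Meox1, a homeobox factor of the somite, had 8.24, 7.78 and 8.89 in wild type and 8.61, 9.10 and 8.67 in null tissue, in the same order of samples. Sample 10 was the lowest of the 6 arrays for Meox1 too, and wild-type sample 12 was above 2 of the 3 null arrays. Its difference was 0.49 ± 0.26 (SE), 0.22 ± 0.22 without sample 10 and 0.77 without wild-type sample 12.

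Relative to the mean of wild-type samples 7 and 12, sample 10 deviated by -1.87 for Foxc2, -1.66 for Tcf15, -1.45 for Foxc1 and -0.78 for Meox1 on the log2 scale. These 4 genes had a wild-type range above 1 log2 unit, as did 2.86% of all named genes tested. The other factors deviated less in size. Pax1 deviated by 0.41 in the opposite direction, Twist1 by 0.26 and Nkx3-2 by 0.04. Meox2 (-0.11) and Pax9 (-0.24) deviated downward, and Pax9, near background in sample 10, was also lowest there. Sample 10 was thus the lowest array for 5 of the 9 factors, where it was the lowest for 18.1% of all genes. The difference between wild-type samples 12 and 7, which leaves sample 10 aside, was still 0.65 for Meox1, 0.63 for Tcf15, 0.44 for Foxc2, 0.39 for Meox2 and 0.26 for both Foxc1 and Twist1. For each tested factor except Pax9 and Twist1, this distance between a pair of wild-type samples was larger in size than the null minus wild-type difference without sample 10.

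**Figure D2:**
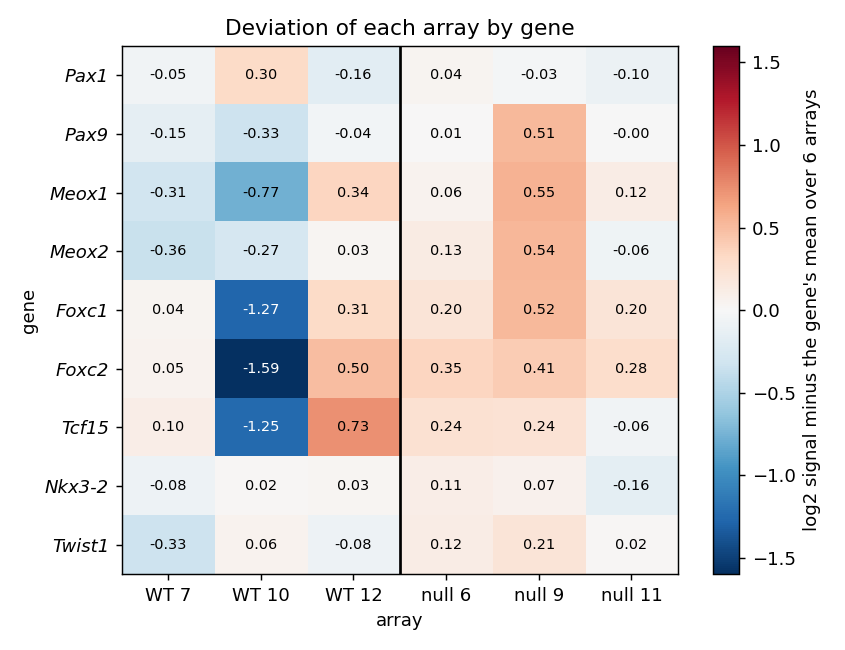
Log2 signal of each tested factor (rows) on each array (columns) minus that gene's mean over the 6 arrays, with wild-type arrays left of the line and null arrays right of it. The darkest blue cells are Foxc2 (-1.59), Foxc1 (-1.27) and Tcf15 (-1.25) in wild-type sample 10, whereas Pax1 is at 0.30 there and null sample 9 is the highest array for 5 of the 9 factors.

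Among the sclerotome factors, Pax1 had nearly the same mean in both genotypes. Pax1 encodes a paired-box factor induced by hedgehog signals in the ventral somite. Its intensities were 328, 528 and 521 in wild-type samples 7, 10 and 12 and 355, 506 and 436 in null samples 6, 9 and 11. The normalized log2 means were 8.96 ± 0.24 in wild type and 8.90 ± 0.07 in null tissue (SD, n = 3 each). The groups overlapped, and the null values lay inside the wild-type range, whose upper end is sample 10 (9.24). Null samples 6 (8.97) and 9 (8.90) were above the other wild-type samples (8.77 and 8.88). The difference was -0.06 ± 0.13 (SE; 95% interval -0.37 to 0.24), and 0.08 ± 0.11 without sample 10.

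Pax9, the paralogue that acts together with Pax1 in the vertebral column, was the single factor whose groups did not overlap. Its log2 signals were 6.51, 6.33 and 6.63 in wild-type samples 7, 10 and 12 and 6.67, 7.18 and 6.66 in null samples 6, 9 and 11. The 3 null values were above the 3 wild-type values for 4.94% of all probes tested. The gap between the highest wild-type and the lowest null array was small, and null sample 9 stood clear of the rest. The difference was 0.35 ± 0.16 (SE; 95% interval -0.02 to 0.71), 0.27 ± 0.17 without wild-type sample 10 and 0.17 without null sample 9. The probe is dim, with intensities of 30.2 to 105, and with subtraction floored at 1 in place of the offset the difference was 0.68.

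Nkx3-2, a homeobox factor induced downstream of Pax1 and Pax9 in mice, was close to constant. Its log2 signals were 6.90, 7.00 and 7.01 in wild type and 7.09, 7.05 and 6.82 in null tissue, in the order above. The null group held both the highest and the lowest array, and the difference was 0.02 ± 0.11 (SE; 95% interval -0.23 to 0.26), and 0.03 ± 0.13 without sample 10. Scx, a basic helix-loop-helix factor of tendon progenitors, had log2 signals of 6.24 to 6.39 in wild type and 6.23 to 6.38 in null tissue, with 1 array of each group above background.

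Meox2, the second mesenchyme homeobox gene, had the smallest unadjusted p of the set (0.0477). Its log2 signals were 7.37, 7.46 and 7.77 in wild-type samples 7, 10 and 12 and 7.86, 8.27 and 7.67 in null samples 6, 9 and 11. Null sample 11 lay below wild-type sample 12, so the groups overlapped. The difference was 0.40 ± 0.17 (SE; 95% interval 0.01 to 0.79), 0.36 ± 0.20 without wild-type sample 10 and 0.23 without null sample 9.

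Twist1 encodes a basic helix-loop-helix factor of mesenchyme in the sclerotome, the limb buds and the head. It had 9.88, 10.28 and 10.14 in wild type and 10.34, 10.43 and 10.24 in null tissue, again as log2 signals in the order above. Wild-type sample 10 was above null sample 11 and was the array that made the groups overlap. The difference was 0.23 ± 0.12 (SE; 95% interval -0.05 to 0.52). Without sample 10 it was 0.32 ± 0.13, and the null values of 2 factors, Twist1 and Pax9, then lay above the remaining wild-type values, as did those of 11.8% of all probes tested. Neither passed in that fit (limma adjusted p = 0.788 for Twist1 and 0.812 for Pax9).

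**Figure D3:**
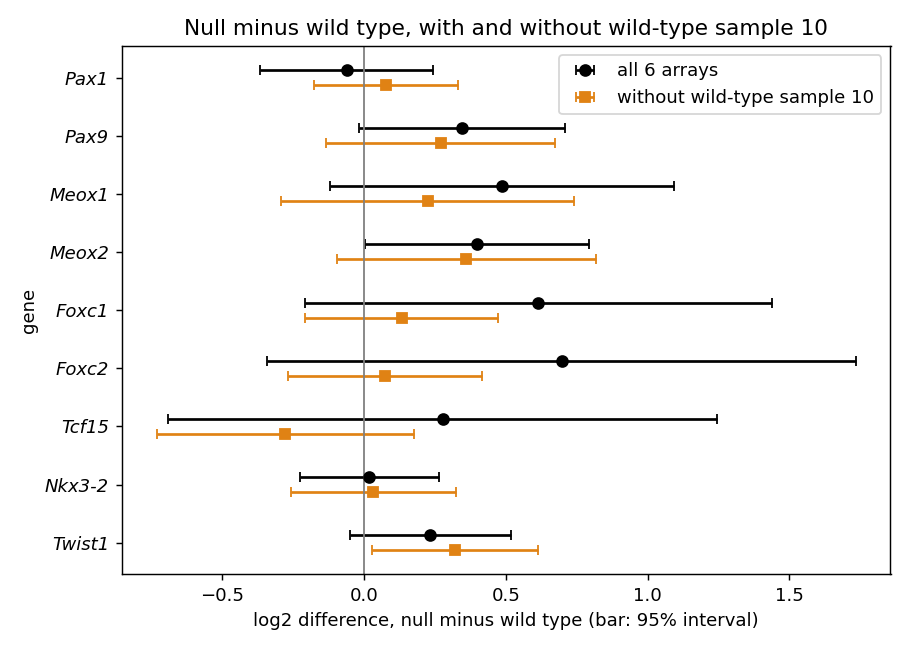
Null minus wild-type difference on the log2 scale (x axis) of the 9 tested factors, with bars for the 95% interval, for all 6 arrays (black) and without wild-type sample 10 (orange). Leaving out the sample moved Foxc2 from 0.70 to 0.07, Foxc1 from 0.62 to 0.13 and Tcf15 from 0.28 to -0.28, and the intervals of these genes narrowed.

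Over all 6 arrays, the difference exceeded the wild-type SD in size for 3 of the 9 factors, Pax9, Meox2 and Twist1, and for 28.9% of all named genes. It was smaller than the wild-type range for 7 of the 9, and for 87.8% of all named genes. The exceptions were Pax9 and Meox2. The median wild-type SD of the 9 factors was 0.24 and their median null SD 0.17, where the medians over all named genes were 0.15 and 0.12. The wild-type SD was above the null SD for 6 of the 9 factors and for 60.2% of all named genes. Null sample 9 was the highest array for Pax9, Meox1, Meox2, Foxc1 and Twist1, which is 5 of 9, and it was the highest for 15.5% of all named genes. Without it 7 of the 9 factors were higher in the null group, with a median of 0.23.

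The paralogue pairs were alike in the sign of their differences except for Pax1 and Pax9. Foxc1 and Foxc2 had 0.62 and 0.70, Meox1 and Meox2 had 0.49 and 0.40, and Pax1 and Pax9 had -0.06 and 0.35. Without wild-type sample 10 these values were 0.13 and 0.07, 0.22 and 0.36, and 0.08 and 0.27. Over the 6 arrays 28 of the 36 pairs of factors were positively correlated, with a median r of 0.49, and 31 of 36 over the 5 arrays without sample 10, with a median of 0.54. The lowest value, -0.92, was between Pax1 and Foxc2 and became -0.28 over the 5 arrays without sample 10. These correlations are a description of few arrays.

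Of the 10 genes, 6 had an entry among the RefSeq promoter windows of build GRCm38.p6: Pax1, Pax9, Meox2, Foxc1, Nkx3-2 and Twist1. The 250 bases before the start are shown for Foxc1, the gene low in wild-type sample 10, for Twist1, which was not low there, and for Meox2, which had the smallest p. Capitals mark the E box, CANNTG, the element bound by basic helix-loop-helix factors such as Twist1, Tcf15 and Scx, and the TATA element TATAAA or its complement TTTATA.
Foxc1, chr13:31806396-31806645, plus strand: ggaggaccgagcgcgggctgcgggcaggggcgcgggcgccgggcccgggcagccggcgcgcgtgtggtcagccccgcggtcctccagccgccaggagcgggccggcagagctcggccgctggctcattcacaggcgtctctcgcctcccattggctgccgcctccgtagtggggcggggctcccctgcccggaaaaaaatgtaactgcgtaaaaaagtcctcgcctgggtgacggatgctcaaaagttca
Twist1, chr12:33957421-33957670, plus strand: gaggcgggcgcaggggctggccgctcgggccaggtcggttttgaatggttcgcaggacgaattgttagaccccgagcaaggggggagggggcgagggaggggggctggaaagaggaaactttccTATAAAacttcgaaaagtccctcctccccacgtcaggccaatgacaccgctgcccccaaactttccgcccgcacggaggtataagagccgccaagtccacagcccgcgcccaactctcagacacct
Meox2, chr12:37108290-37108539, plus strand: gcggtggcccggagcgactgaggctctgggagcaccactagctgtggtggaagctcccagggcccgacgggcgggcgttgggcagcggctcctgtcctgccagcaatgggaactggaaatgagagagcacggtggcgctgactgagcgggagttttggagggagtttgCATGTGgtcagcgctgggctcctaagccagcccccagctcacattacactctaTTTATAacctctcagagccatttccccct
Meox2 held 1 E box and 1 TATA element, which did not overlap, Twist1 held 1 TATA element, and Foxc1 held neither. An E box stood in 66.2% and a TATA element in 12.4% of all 32851 windows of this length, on either strand. Pax9 and Nkx3-2 held 1 E box each and Pax1 none. The forkhead element GTAAACA or its complement TGTTTAC was in none of the 6 windows and in 3.17% of all windows. The GC content was 70.8% for Foxc1, 62.4% for Twist1 and 62.0% for Meox2, against a median of 52.4% over all windows. A match is a description of these letters and not a binding site.

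Genes that act with or after these factors were examined as lists. Of 12 tested genes of the sclerotome and tendon programme, 8 had a higher and 4 a lower mean in the null group, with a median difference of 0.10. Without wild-type sample 10 the split was 6 and 6, with a median of 0.04. None passed the limma threshold, and 1, Pdgfra, was higher with an unadjusted p under 0.05, as were 1.75% of all probes. The receptor gene Pdgfra, expressed in sclerotome mesenchyme, had 0.32 ± 0.12 (SE). Its null values lay above all wild-type values, as did those of 4.94% of all probes. The tendon gene Tnmd had -0.13 ± 0.11. Acan, a cartilage proteoglycan gene, was near background on all arrays.

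In the presomitic and segmentation list, 6 of 10 tested genes were higher and 4 lower in the null group over all arrays, with a median of 0.02, and none passed or was under an unadjusted p of 0.05 in limma. Without wild-type sample 10 the split was 1 higher and 9 lower with a median of -0.24. Sample 10 was the lowest array for 7 of the 10. The Wnt potentiator Rspo3 had a difference of 0.37 ± 0.37 (SE) with sample 10 and -0.06 without it. The segmentation clock gene Hes7 had -0.20 ± 0.25 and -0.52 ± 0.13, and Epha4, a receptor active at somite borders, had 0.19 ± 0.14 and 0.27 ± 0.15. Of 9 tested dermomyotome and myotome genes 6 were higher and 3 lower, with a median of 0.11 (again 6 and 3 without sample 10, with a median of 0.18). None passed, and 2 were higher with an unadjusted p under 0.05, as were 1.75% of all probes. Dmrt2, a somite patterning factor and 1 of these 2, had 0.49 ± 0.17. The muscle determination gene Myf5, which was not among them, had 0.42 ± 0.25, and both genes overlapped between the groups.

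Among the signals to the sclerotome, 5 of 12 tested genes were higher and 7 lower in the null group, with a median of -0.03. None passed (limma adjusted p = 0.9999 for each), and 3 were higher with an unadjusted p under 0.05, as were 1.75% of all probes. The null values of these 3 lay above all wild-type values, as did those of 4.94% of all probes: the hedgehog receptor and target Ptch1 at 0.67 ± 0.13 (SE), the BMP antagonist Grem1 at 0.30 ± 0.09 and the hedgehog-binding protein gene Hhip at 0.31 ± 0.12. Without sample 10 the null values lay above the wild-type values for 4 of the 11 genes then tested, where 11.8% of all probes were above. They lay below the wild-type values for 1 gene, and the share of all probes below was not computed. Shh was near background on all arrays. Ptch1 was higher in each null sample (log2 12.26 to 12.58) than in any wild-type sample (11.53 to 11.91). The null values of Pax1 lay inside the wild-type range, whose upper end is sample 10. Whether Ptch1 and Pax1 answer to the same signal or the same cells in this tissue was not tested. Of 7 tested partners and inhibitors of basic helix-loop-helix factors 5 were higher and 2 lower, with a median of 0.07, and none passed or was under an unadjusted p of 0.05. The E protein gene Tcf3 had 0.14 ± 0.12, and the inhibitor genes Id1 and Id2 had 0.15 ± 0.15 and -0.08 ± 0.14.

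Markers of other tissues moved along with the low somite signals of wild-type sample 10. Its 7 tail bud markers had the lowest summed normalized intensity of all arrays, 1736, against 3525 and 5938 in the other wild-type samples and 2894 to 4235 in the null samples. Of the 7, 4 were lowest in sample 10. The tail bud gene T had a log2 signal of 7.99 there and 9.88 to 11.11 elsewhere. Its 5 primitive erythroid markers had the highest sum, 37873 against 12882 and 20732 in the other wild-type samples and 9755 to 25432 in the null samples, and each of the 5 was highest in sample 10. The spot of the globin gene Hbb-y was saturated on that array, so the sum there is a lower bound. Its 6 neural tube markers had a sum of 2944, against 2121 and 2419 in the other wild-type samples and 1617 to 2420 in the null samples, with 4 of the 6 highest in sample 10 and Olig2 near background on every array. The mean deviation on this array was -0.72 for the tail bud list, -0.58 for the presomitic list, -0.57 for the 9 somite and sclerotome factors, 0.32 for the neural tube list and 0.85 for the erythroid list. Lateral plate and limb markers had sums of 1562, 1632 and 1822 in wild-type samples 7, 10 and 12 and 1567 to 1631 in the null samples, and Hand2 was near background on every array. By genotype, 1 of 6 neural tube markers had a higher mean in the null group (median -0.18), 2 of 5 erythroid markers (median -0.01) and 4 of 7 tail bud markers (median 0.06). Without sample 10 these counts were 2 of 6 (median -0.19), 4 of 5 (median 0.37) and 1 of 7 (median -0.24). Over all arrays the same count was 0 of 6 for surface ectoderm (median -0.28), 1 of 4 for gut endoderm (-0.13), 0 of 5 for neural crest (-0.16), 3 of 5 for endothelium (0.08), 3 of 7 for lateral plate and limb (-0.05) and 3 of 3 for intermediate mesoderm (0.12). Without sample 10 it was 0 of 5, 1 of 4, 0 of 5, 4 of 5, 3 of 7 and 2 of 3 in the same order, with medians of -0.31, -0.21, -0.13, 0.15, -0.19 and 0.02. None of these markers passed the limma threshold, and 7 were under an unadjusted p of 0.05. Of these 6 were lower in the null group, where 1.34% of all probes were lower and under that p. They were 2 of 6 neural tube, 2 of 6 surface ectoderm, 1 of 4 gut endoderm and 1 of 7 lateral plate and limb markers. The other, Kdr, 1 of 5 endothelial markers, was higher, where 1.75% of all probes were higher and under that p. The part that tissue composition or sex has in the low somite signals was not tested.

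**Figure D4:**
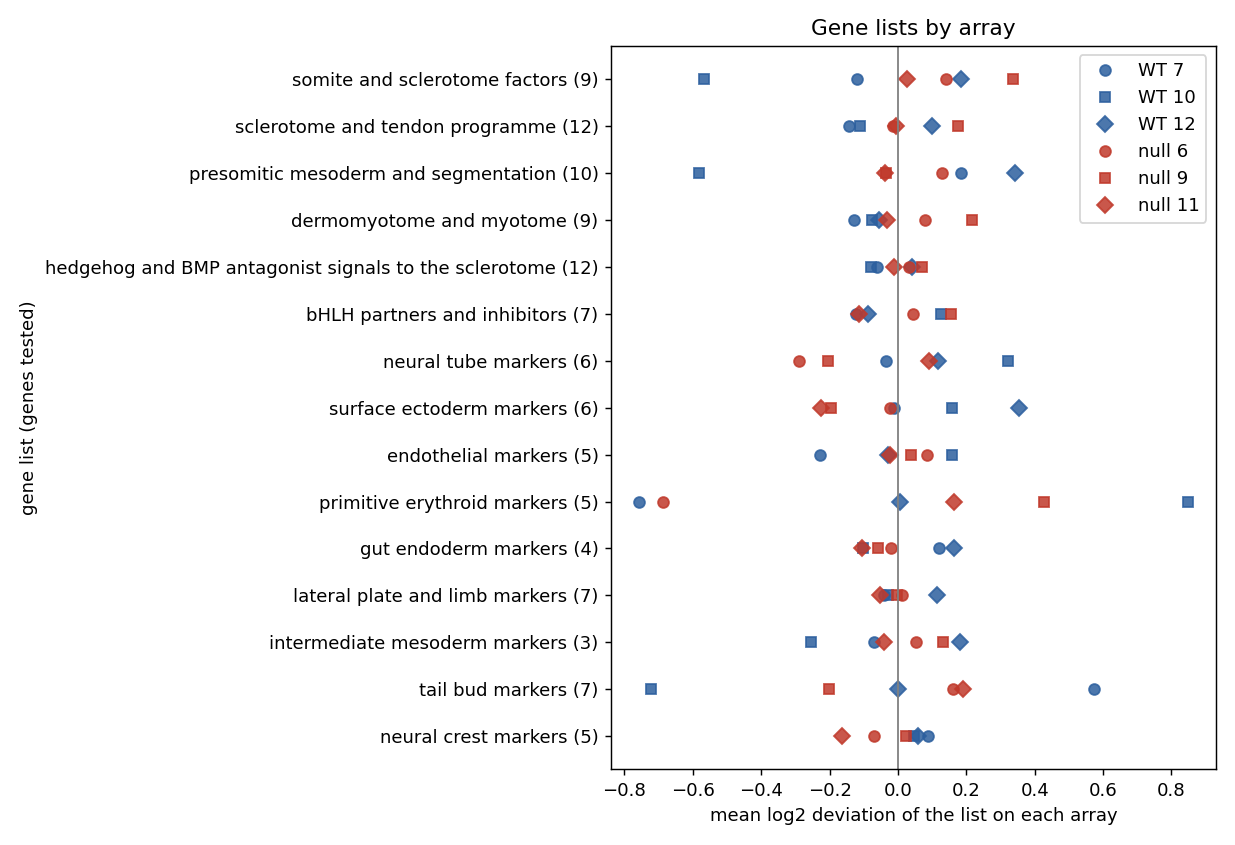
Mean log2 deviation of each gene list from its average over the 6 arrays (x axis), 1 symbol per array, wild type in blue and null in red, with the number of genes tested in brackets. Wild-type sample 10 (blue square) is the lowest array for the somite and sclerotome factors (-0.57), the presomitic list (-0.58) and the tail bud list (-0.72) and the highest for the neural tube (0.32) and erythroid (0.85) lists. It is also the lowest for the intermediate mesoderm (-0.25) and the hedgehog and BMP antagonist (-0.08) lists, and the highest for the endothelial list (0.16).

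Genes whose profile over the 6 arrays was among the most like the mean profile of the 9 factors, among 11038 other named genes above background on all arrays, were Prpsap1 (r = 0.99), Ncam1 (0.98), Snhg20 (0.98) and Mtor (0.98). Over the 5 arrays without sample 10 the r of these genes was 0.97, 0.92, 0.92 and 0.94. The ranking rests on 6 points and is given as a description only. All of these had their lowest signal in sample 10, for instance log2 8.93 for Mtor there and 9.07 to 9.23 elsewhere. The mean profile is itself lowest in sample 10 (-0.57), so this low signal follows from how the genes were picked.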

How the data were processed

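Total RNA was amplified into biotin-labelled cRNA by a modified Eberwine protocol, per the labels' protocols, and 1 array was hybridised per sample. The authors' deposited array files hold, per the file headers, the intensity of each spot from CodeLink Expression Analysis, a median-normalized intensity and a quality flag; the raw intensity was already background-subtracted, as 38 to 67 transcript spots on each array had negative values. A build for the array design was not given in the labels or headers. Spots were named by the platform annotation and the RefSeq table of GRCm38.p6 (21487 by Entrez number, 497 by accession); all 10 member probes carried the accession listed for their gene.

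Quantile normalization was applied to log2(intensity + 50), with negative intensities set to 0 first. Irregular, contaminated, defective and missing spots (391 to 543 per array) were left out. A probe was tested where all usable arrays of at least 1 group were above background and each group had 2 usable values. The two-sided test was limma 3.58.1 (lmFit and eBayes, R 4.3.3), p-values were adjusted across every probe tested by the Benjamini-Hochberg method, and the fit was checked on simulated data. The offset compresses differences of dim probes. The number of arrays limits the precision. For lists the brightest probe per gene was used.

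The members and the 14 other lists were chosen with earlier results of these data known. All members and Fkbp8 were named whatever their values. In each other list up to 3 tested genes with the smallest p could be named, along with the 5 genes most like the members' mean profile (some genes that the rule picks are not reported here) and the sex genes Xist and Eif2s3y. Acan, Shh, Olig2 and Hand2, near background throughout, were named after their values were seen. Alternatives covered offset, normalization, source of values, filters, weights and leaving out each array.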

Additional observations from a re-analysis of the deposited data

How the results depend on the processing

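No somite or sclerotome factor passed the adjusted threshold under any of the 16 alternatives that give a value for each factor. Over all probes tested the single call, Tm7sf3, is no member of the set. The count of calls was 0 with intensity floored at 1 and with cyclic loess, 2 with every spot kept whatever its flag, and 0 to 1 when single arrays were left out. Median scaling kept 1 call, as did the median-normalized values of the array software, which gave the same result, and the deposited value table. Of the 144 alternative values of the 9 factors, 139 kept their direction. These values are not all separate checks. Dropping the filter on dim probes, or letting the limma variance follow intensity, left every difference as it was. Median scaling and the software's own normalized values gave equal differences. When single arrays were left out, Pax1 ranged from -0.16 to 0.078, Tcf15 from -0.28 to 0.71 and Nkx3-2 from -0.033 to 0.10. The sign of Pax1 and Tcf15 turned without wild-type sample 10, and that of Nkx3-2 without sample 6, 7 or 9. Among the other named genes Rspo3 ranged from -0.060 to 0.73 and T from -0.36 to 1.21, both turning without wild-type sample 10. Hes7 ranged from -0.52 to 0.012, Id2 from -0.17 to 0.084 and Hbb-y from -0.80 to 0.035. With single arrays left out, the median of the 9 factors ranged from 0.13 without wild-type sample 10 to 0.50 without wild-type sample 12, and it was 0.52 with intensity floored at 1. The cause of these changes was not tested. No paired analysis was possible because the labels give no pairing or batch.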
